A study of Mus musculus with 18 samples.

Results

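The change from young to adult vestibular organ in mice without Igf1 was followed by setting 3 arrays of Igf1 -/- mice at P90 (90 days after birth) against 3 arrays of Igf1 -/- mice at P15 (15 days after birth). These are 6 of the 18 arrays of the study, and 19106 autosomal genes of the 19938 genes tested are reported, each read by the probe set with the highest mean. The mice had a hybrid Mf1 and 129/sv background, and both ages carry the same loss of Igf1 in every tissue the labels cover. The vestibular organ is the balance part of the inner ear. Wild-type (Igf1 +/+) mice of the same background and ages, 3 arrays each, are used only to ask where the null change differs, and the E18.5 arrays of both genotypes only to estimate the spread. The animals were anaesthetised and perfused with paraformaldehyde before the inner ear was dissected, and 100 ng of total RNA went onto Mouse Gene 1.1 ST arrays, which read each gene with several short probes. Each array is called a biological replicate, but the labels do not say whether it holds 1 animal or several, so the p-values rest on the spread among arrays only, which may be technical. The labels do not describe the allele that removes Igf1. For the wild-type P15 and P90 arrays the free description names the null genotype, while title, source and genotype label all say Igf1 +/+, which was followed.

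Insulin-like growth factor 1 is a secreted growth factor that acts through the receptor Igf1r and carries much of the growth-promoting action of growth hormone. In the vestibular organ, hair cells sense head movement, supporting cells and the otoconial membrane surround them, and vestibular ganglion neurons carry the signal to the brainstem. The organ lies in a capsule of bone that forms through cartilage and has marrow nearby, and muscle, middle ear mucosa and cerebellum lie close to the inner ear. Growth of the mouse skeleton slows between weaning and adulthood, when proliferating cells and matrix-producing cells become fewer in most growing tissues.

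Values are in the log units of the deposited table, quantile normalized between arrays, and differences are P90 minus P15 with the standard error (SE) of the limma fit. The base of the logarithm is open, so that a step of 1 unit means 2.72-fold for natural logs and 2-fold for log2. Within P15 the 3 null arrays correlated at 0.985 to 0.990 across genes and within P90 at 0.975 to 0.987, while arrays of different ages correlated at 0.957 to 0.979. The first principal component of the 6 null arrays held 52.9% of the variance and set P15 (scores -27.8 to -13.4) apart from P90 (16.8 to 26.0). In the 18 arrays together, wild-type P90 arrays 1 and 2 stood apart from the other P90 arrays on the third component (13.2 and 16.8 against -23.9 to -12.0). Xist, the RNA that silences an X chromosome in females, and 3 Y-linked genes showed that the groups differed in sex. Across null P15 arrays 1 to 3 Xist read 7.61, 8.09 and 4.09 and the Y-linked genes averaged 5.69, 3.29 and 6.31. In null P90 arrays Xist read 7.91, 7.43 and 7.42 and the Y-linked genes averaged 1.996, 5.44 and 5.49. In wild-type P90 arrays Xist ran from 1.86 to 3.33 and the Y-linked average from 6.12 to 6.32. Several arrays held both signals, among them null P15 array 1 and null P90 arrays 2 and 3, as RNA of both sexes in 1 array would give. Whether these arrays pool animals was not tested. The wild-type P90 arrays alone had little Xist.

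Igf1 itself did not differ detectably between the ages of the null mice. It read 5.54, 5.69 and 5.42 at P15 and 5.43, 5.51 and 5.31 at P90, with a difference of -0.13 ± 0.12 (limma adjusted p = 0.53), and the groups overlapped. Where its probes lie with respect to the deletion was not known here, and the level therefore checks no label. Defining genes of the labelled organ were measured at both ages. The mean level at P15 and P90 was 4.34 and 4.31 for Otof, the synaptic calcium sensor of hair cells, 4.49 and 4.48 for Myo7a, a hair bundle myosin, and 2.39 and 2.83 for Pou4f3, a hair cell transcription factor. Oc90, the main protein of otoconia, had 4.36 and 3.83, and Coch, the cochlin of otic fibrocytes, had 7.89 and 8.31. Genes of other tissues were present too, among them the muscle actin Acta1 (7.74 and 8.48), the bone sialoprotein Ibsp (8.55 and 7.15), the granule cell receptor subunit Gabra6 (7.88 and 8.10) and the neutrophil elastase Elane (5.28 and 5.69). For scale, the highest Y-linked gene read 2.18 in P90 null array 1, which had the least Y-linked signal; this is a rough guide to background, and 6.61% of autosomal genes had both null means below it. In bulk tissue, fewer cells of a type and less RNA per cell cannot be told apart.

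Between P15 and P90, 1178 autosomal genes rose and 1306 fell in the null vestibular organ (13.0% of the 19106 called at an adjusted p under 0.05, 6.17% higher and 6.84% lower). The median rise among called genes was 0.53 and the median fall -0.53, and 129 rises and 136 falls exceeded 1 unit. The median difference over all autosomal genes was 0.02. At 32.0% of genes the 3 P90 arrays did not overlap the 3 P15 arrays, and 25.8% of genes had an unadjusted p under 0.05. The counts depended on 2 libraries, with 555 higher and 695 lower without P15 null array 2 and 571 and 732 without P15 null array 3. With a sex score (Xist minus the Y-linked average) as a covariate the counts were 808 higher and 952 lower. They also depended on the scaling, since in the values as deposited, where the median gene shifted by 0.39, 97.4% of the called genes were higher, against 47.4% here and 33.1% with array medians subtracted. Directions below are therefore relative to the other genes of the array. Calls that ended when 1 null array was left out are named with those arrays and the adjusted p without them.

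The largest falls included genes of B cell development, bone, developing neurons and granulocytes. The largest rises included a thyroid hormone carrier and plasma cell, macrophage, epithelial and muscle genes. These are single genes, and the lists of their cell types did not always move with them. Of 17 neutrophil granule genes 0 were called lower and the median was 0.43. Mature B and plasma cell genes and macrophage genes moved both ways, as given below. Prss35, a trypsin-like serine protease without a settled function, read 6.57, 6.71 and 6.68 at P15 and 4.28, 4.71 and 4.25 at P90, a difference of -2.24 ± 0.13 (adjusted p = 3.6e-07). All 3 adult arrays lay far below the young ones. The stefins Stfa2 (-3.11 ± 0.44) and Stfa3 (-3.00 ± 0.48) and Csta3 (-2.14 ± 0.31), inhibitors of cysteine proteases found in granulocytes, also fell. They belong to a cluster of near-identical genes on chromosome 16, so their separate values are uncertain. Nhlh1, a transcription factor of newly formed neurons, went from 4.12, 5.10 and 4.70 to 2.05, 1.85 and 2.34 (-2.56 ± 0.40, adjusted p = 8.7e-04). The P90 means of Nhlh1 and Csta3 lay below the background guide of 2.18, so the sizes of their falls are uncertain.

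Among the rises, Ttr, the transthyretin that carries thyroid hormone and retinol-binding protein, had the largest difference. It read 5.48, 6.47 and 5.05 at P15 and 8.73, 8.07 and 7.63 at P90 (2.48 ± 0.53, adjusted p = 0.0066). Jchain, which joins secreted antibody units and marks plasma cells, read 2.60, 2.44 and 2.34 at P15 and 6.15, 4.90 and 3.73 at P90 (2.47 ± 0.45, adjusted p = 0.0027). Both rose in every adult array, but the adult arrays spread over more than 1 unit. Cyp2e1, an alcohol- and lipid-metabolising cytochrome, went from 2.32, 2.38 and 2.45 to 4.76, 4.25 and 5.001 (2.29 ± 0.27, adjusted p = 9.4e-05). Mmp12, the macrophage elastase, went from 4.24, 3.75 and 3.60 to 6.28, 6.10 and 6.08 (2.29 ± 0.19, adjusted p = 6.9e-06). Reg3g (2.06 ± 0.45), an antibacterial lectin of epithelia, the epithelial genes Clca3a2 (1.83 ± 0.33) and Serpinb11 (1.64 ± 0.47), the secretory glycoprotein Gp2 (1.78 ± 0.42) and Pck1 (1.64 ± 0.43), an enzyme of glucose and glycerol synthesis, complete the largest rises with Xirp2, described below. The call of Serpinb11 ended without P15 null array 2 (adjusted p = 0.16), P15 null array 3 (0.073) or P90 null array 1 (0.14). The call of Gp2, which lay below the background guide at P15, ended without P15 null array 3 (0.053).

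**Figure D1:**
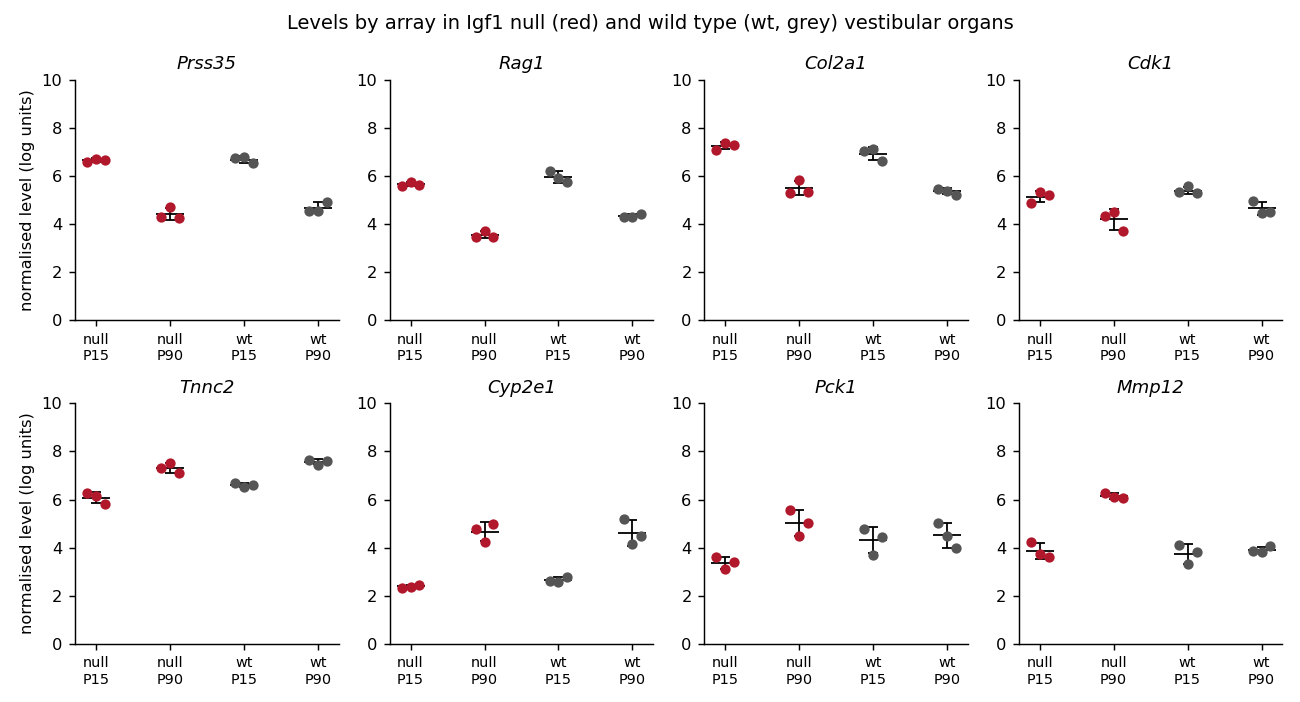
Normalised level in log units (y axis) of 8 genes in each array of null (red) and wild-type (grey, wt) vestibular organs at P15 and P90; points are arrays, bars the mean and whiskers ± SD (n = 3). Prss35, Rag1, Col2a1 and Cdk1 are lower in all 3 null P90 arrays than in the null P15 arrays, Tnnc2, Cyp2e1 and Pck1 are higher, and Mmp12 is above 6 in the null P90 arrays alone.

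Proliferation genes fell together. Of 41 measured genes of cell cycle and replication, 31 were lower and 0 higher, against 6.84% of all genes lower, and the list median was -0.80 with every member below 0. Per array, the median level of the list was 5.37, 5.65 and 5.42 at P15 and 4.93, 4.96 and 4.26 at P90. P90 null array 3 was the lowest, and the other 2 adult arrays also lay below all young arrays. Cdk1, the kinase that starts mitosis, read 4.89, 5.31 and 5.19 at P15 and 4.34, 4.52 and 3.71 at P90 (-0.94 ± 0.19, adjusted p = 0.0040). Cenpf, a kinetochore protein, differed by -1.23 ± 0.22, the mitotic transcription factor Foxm1 by -0.88 ± 0.13 and the kinase Melk by -0.93 ± 0.17. Top2a, the topoisomerase that untangles replicated chromosomes, went from 6.78, 6.93 and 6.74 to 6.09, 6.18 and 5.20, and the proliferation marker Mki67 differed by -0.91 ± 0.22. The helicase subunits Mcm2, Mcm3, Mcm4, Mcm6 and Mcm7 fell by smaller steps (-0.69 to -0.40). The G1 cyclins Ccne1 (-0.31) and Ccne2 (-0.25) and the replication clamp Pcna (-0.43) did not pass. All 5 helicase subunits lost the call without P15 null array 2, and all but Mcm3 without P15 null array 3 or P90 null array 3. Mcm2 also lost it without P90 null array 1 or 2, Mcm4 without P15 null array 1 or P90 null array 2 and Mcm7 without P90 null array 1. Mki67 lost it without P15 null array 2 or P90 null array 3 (0.054 to 0.056). The number of lower members was 11 without P15 null array 2, 19 without P15 null array 3, 16 without P90 null array 3 and 11 in a fit of the 6 null arrays alone.

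Because these genes moved together, the 250 bases before their start sites (RefSeq, GRCm38.p6) were searched for CCAAT on either strand (ATTGG on the other), the box that the factor NF-Y binds in many mitotic promoters. A promoter was available for 34 of the 41 members, and 26 of them held the box (76.5%, against 38.5% of 14959 autosomal genes). Of the called members with a promoter 22 of 25 held it, and of those not called 4 of 9. Melk, described above, was a called member without it. A match describes the letters and is no evidence of binding. The promoters of Top2a with 6 matches, Cdk1 with 3 and Cenpf with 2 are shown, 5′ to 3′ on the strand of the gene, with the matches in capitals.
Top2a, chr11:99024190-99024439, minus strand: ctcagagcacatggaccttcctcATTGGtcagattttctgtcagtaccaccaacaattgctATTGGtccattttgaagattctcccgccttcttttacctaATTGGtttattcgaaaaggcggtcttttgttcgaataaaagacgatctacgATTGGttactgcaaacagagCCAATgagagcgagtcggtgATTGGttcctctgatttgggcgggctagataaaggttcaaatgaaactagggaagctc
Cdk1, chr10:69352913-69353162, minus strand: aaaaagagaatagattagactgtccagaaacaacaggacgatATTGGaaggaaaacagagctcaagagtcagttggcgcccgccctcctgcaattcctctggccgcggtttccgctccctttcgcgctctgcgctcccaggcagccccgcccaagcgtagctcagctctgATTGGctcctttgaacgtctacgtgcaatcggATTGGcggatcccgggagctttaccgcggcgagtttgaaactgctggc
Cenpf, chr1:189688087-189688336, minus strand: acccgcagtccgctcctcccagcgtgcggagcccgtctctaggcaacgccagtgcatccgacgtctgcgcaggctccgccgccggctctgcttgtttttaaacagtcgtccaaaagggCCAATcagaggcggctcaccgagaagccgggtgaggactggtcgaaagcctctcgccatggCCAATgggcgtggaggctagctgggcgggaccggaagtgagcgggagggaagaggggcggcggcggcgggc
The match nearest the gene begins 58 bases before the start site in Top2a, 48 in Cdk1 and 71 in Cenpf.

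Genes of connective tissue matrix fell as well. Of 24 measured genes of fibrillar collagen and elastic matrix, 21 were lower and 0 higher, with a median of -0.74, against 6.84% of all genes lower. The list median per array was 5.96, 6.30 and 6.27 at P15 and 5.44, 5.64 and 5.32 at P90. Fbn2, the fibrillin of growing elastic fibres, read 5.24, 5.58 and 5.53 at P15 and 3.85, 4.11 and 3.73 at P90 (-1.56 ± 0.12, adjusted p = 6.2e-06). Col5a2, a chain of the collagen that starts fibrils, had a difference of -1.53 ± 0.15, and Lox, the enzyme that crosslinks collagen and elastin, one of -1.33 ± 0.20. Col1a1, the main collagen of bone, was 9.05, 9.17 and 9.13 at P15 and 7.53, 8.36 and 7.83 at P90 (-1.21 ± 0.15). Sparc, a collagen-binding glycoprotein, differed by -0.72 ± 0.08, and the elastin gene Eln by -0.77 ± 0.18. At 21 of the 24 measured genes every adult array lay below every young one, against 15.2% of all genes. Col5a3 (-0.22), Col14a1 (-0.14) and P4ha1 (-0.06) did not pass.

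Cartilage genes moved both ways. Of 23 measured members, 8 fell, 4 rose and 11 did not pass (median -0.37), beside 6.84% of all genes lower and 6.17% higher. The fibril collagens of growing cartilage were among the falling members, with Col11a1 at -1.83 ± 0.14, Col2a1 at -1.78 ± 0.15, Col11a2 at -1.26 ± 0.14 and Col9a1 at -1.16 ± 0.17. Col2a1 went from 7.09, 7.37 and 7.30 to 5.30, 5.81 and 5.32. Col10a1, the collagen of hypertrophic cartilage, read 4.24, 5.87 and 5.96 at P15 and 3.55, 3.60 and 3.38 at P90 (-1.85 ± 0.40), and P15 null array 1 was well below the other 2. The rising members were Prg4, the lubricin of joint surfaces (1.14 ± 0.24), Comp, a matrix protein of mature cartilage and tendon (0.76 ± 0.12), Chad (0.44 ± 0.14) and Sox9, the master transcription factor of chondrocytes (0.32 ± 0.06). Sox9 was tight at both ages, with 5.30, 5.27 and 5.29 against 5.62, 5.66 and 5.56. The number of lower members was 5 without P15 null array 2 and 5 without P15 null array 3, and the call of Chad ended without P15 null array 1, 2 or 3 or P90 null array 1 or 2 (adjusted p of 0.066 to 0.18).

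Genes of bone formation and of bone resorption were both lower. Of 14 measured osteoblast and osteocyte genes 9 fell and 0 rose (median -0.95), and of 13 osteoclast genes 9 fell and 0 rose (median -0.55). Of all genes 6.84% were lower. Panx3, a membrane channel of osteoblasts, read 5.23, 5.96 and 6.03 at P15 and 3.14, 3.55 and 3.08 at P90 (-2.49 ± 0.24, adjusted p = 2.0e-05). Dmp1, a matrix protein of osteocytes, fell by 1.56 (SE 0.20), Ibsp by 1.40 (SE 0.24), the sphingomyelinase Smpd3 by 1.21 (SE 0.09), the alkaline phosphatase Alpl by 1.19 (SE 0.15) and the bone transcription factor Sp7 by 0.85 (SE 0.11). The osteocyte inhibitor of Wnt signalling Sost (-0.16) and the hormone Fgf23 (0.57) did not pass. Ctsk, the protease with which osteoclasts dissolve collagen, went from 6.93, 7.80 and 7.84 to 5.55, 5.91 and 5.99 (-1.70 ± 0.22). The gelatinase Mmp9 (-1.01 ± 0.20), the fusion protein Dcstamp (-0.96 ± 0.19) and the osteoclast transcription factor Nfatc1 (-0.38 ± 0.08) were also lower, while the integrin Itgb3 stood at 0.01. The osteoclast count was 5 without P15 null array 2 and 4 without P15 null array 3.

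B cell precursor genes had the lowest median of the 43 lists, -1.50, and 11 of 12 measured members fell, against 6.84% of all genes lower. The list median per array was 5.50, 5.39 and 5.24 at P15 and 3.56, 3.94 and 3.83 at P90, with no overlap. Rag1 and Rag2 encode the recombinase that assembles antigen receptor genes. Rag1 read 5.59, 5.75 and 5.63 at P15 and 3.47, 3.72 and 3.46 at P90 (-2.11 ± 0.16, adjusted p = 4.0e-06). Rag2 went from 3.66, 3.55 and 3.70 to 1.59, 1.66 and 1.86, at or below the background guide in the adult. Pax5, the factor that commits cells to the B lineage, fell by 1.88 (SE 0.16), the receptor chains Cd79a and Cd79b by 2.21 (SE 0.25) and 1.39 (SE 0.12), and the surrogate light chain Igll1 by 1.58 (SE 0.18). Vpreb1 (-0.62) did not pass. The 11 calls remained at 11 without each null array in turn.

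Mature B and plasma cell genes moved both ways. Of 16 members 3 rose and 3 fell, beside 13.0% of all genes called. The surface antigen Ms4a1 (CD20) went from 5.63, 5.21 and 5.22 to 3.64, 3.99 and 3.03 (-1.80 ± 0.21), and the inhibitory receptor Cd22 fell by 0.74 (SE 0.15). Jchain rose as given above, and the class II genes H2-Aa (0.87 ± 0.26) and H2-Ab1 (0.86 ± 0.26), which antigen-presenting cells of several kinds express, rose with it. The antibody heavy chain gene Ighm differed by -0.21 and the plasma cell factor Prdm1 by -0.46, and neither passed. Both class II calls ended, leaving 1 rising gene, without P15 null array 2 or 3 or P90 null array 1 or 2. Of the other blood lists, 1 of 17 erythroid genes fell (Rhag, -0.89 ± 0.27, list median -0.30) and 1 of 13 T and NK cell genes rose (Cd3e, 0.47). Both counts stand beside 13.0% of all genes called. In limma 0 of 17 neutrophil granule genes passed, although 16 had a positive difference (median 0.43). Of these 17, 1 had an unadjusted p under 0.05, beside 25.8% of all genes. The call of Rhag ended without P15 null array 2 or 3 or P90 null array 1 or 3 (adjusted p of 0.098 to 0.18), and that of Cd3e without P15 null array 3 or P90 null array 1 (0.084 to 0.094).

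Genes of immature neurons fell. Of 17 measured members 9 were lower and 0 higher (median -0.54), against 6.84% of all genes lower. Sox11, a transcription factor of newborn neurons, read 5.55, 6.23 and 6.18 at P15 and 3.87, 3.67 and 3.54 at P90 (-2.30 ± 0.24, adjusted p = 4.1e-05), and its relative Sox4 fell by 1.12 (SE 0.15). Igfbpl1, which resembles IGF-binding proteins, went from 4.05, 5.31 and 5.13 to 2.76, 3.08 and 2.95 (-1.90 ± 0.33). Tubb2b, a tubulin of growing neurites, had a difference of -1.25 ± 0.21, and the growth cone proteins Marcksl1 and Basp1 had -1.23 ± 0.19 and -0.84 ± 0.13. Gap43, a growth cone protein that many neurons keep, differed by -0.19 and did not pass. The arrays also hold cerebellar genes, of which 2 of 16 rose (Chn2, 0.53, and Car8, 0.42) and 1 fell (Zic4, -0.45), with a list median of -0.04. The cerebellar calls stand beside 13.0% of all genes called. No cerebellar call remained without P15 null array 2 or 3; Car8 also lost it without P90 null array 1, 2 or 3, Chn2 without P90 null array 3 and Zic4 without P90 null array 1. The part of cerebellar tissue in the fall of immature neuron genes was not tested.

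**Figure D2:**
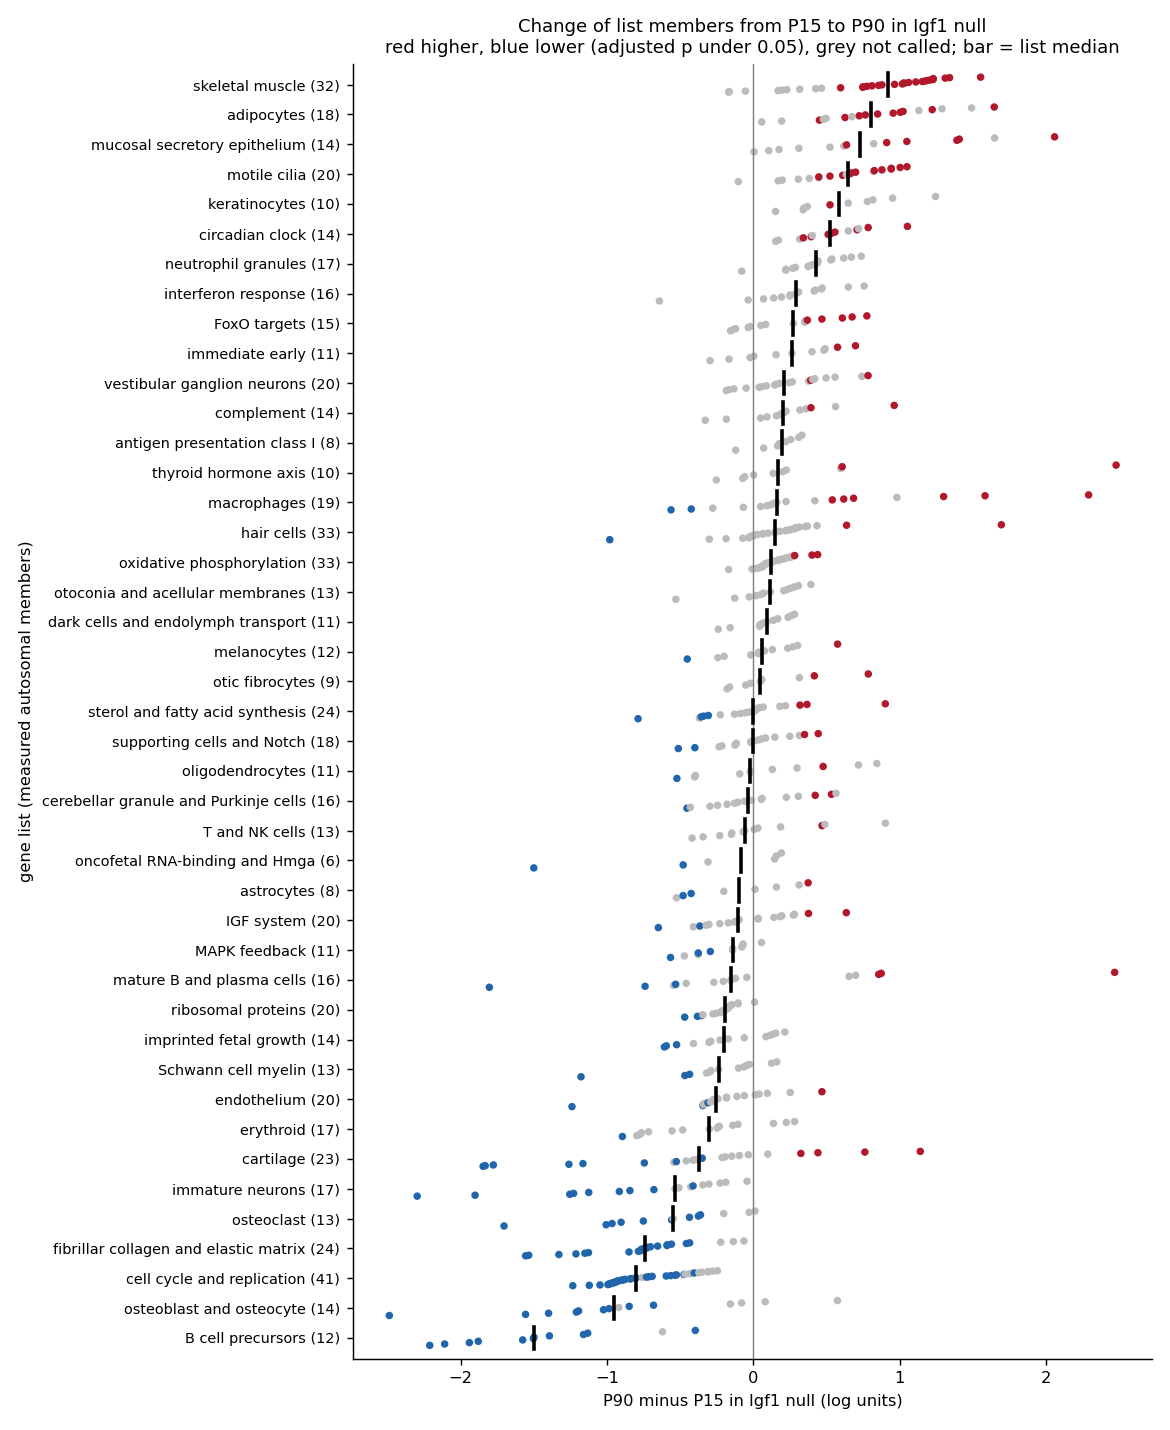
Change from P15 to P90 in the null vestibular organ (x axis, log units) for the measured autosomal members of 43 gene lists (y axis, number of members in brackets); each point is a gene, red if higher and blue if lower at an adjusted p under 0.05, grey if not called, and the black bar is the list median. B cell precursors, osteoblasts, cell cycle and collagen lie left of 0, skeletal muscle, adipocytes, secretory epithelium and motile cilia right of it, and most lists of the ear lie around 0.

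Skeletal muscle genes had the highest median of the 43 lists, 0.92. Of 32 measured members 23 rose and 0 fell, against 6.17% of all genes higher. The list median per array was 6.08, 5.99 and 5.68 at P15 and 6.99, 7.02 and 6.81 at P90. Tnnc2, the calcium sensor of fast muscle, read 6.28, 6.14 and 5.83 at P15 and 7.33, 7.50 and 7.09 at P90 (1.23 ± 0.15, adjusted p = 1.6e-04). Ttn, the giant spring protein of the sarcomere, rose by 1.31 ± 0.17, the fast troponin Tnni2 by 1.21 ± 0.15 and Ampd1, an enzyme of muscle energy metabolism, by 1.55 ± 0.21. The adult myosins Myh1 (0.81 ± 0.19), Myh2 (1.34 ± 0.28), Myh4 (1.18 ± 0.24) and Myh7 (0.88 ± 0.22) rose. The embryonic and perinatal myosins Myh3 (-0.16) and Myh8 (0.43), the myogenic factors Myod1 (0.17) and Myog (-0.17) and the acetylcholine receptor subunits Chrna1 (0.32), Chrnd (0.23), Chrne (-0.05) and Chrng (0.20) did not pass. Both oxidative (Myh7, Mb) and fast (Myh4, Actn3) fibre genes were among the rising members. The muscle count ran from 19 without P15 null array 3 to 23. The calls of Myh1, Myh7 and Mb ended without P15 null array 3, those of Myh7 and Mb also without P90 null array 2, and that of Myh7 without P15 null array 2 (adjusted p of 0.054 to 0.087).

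The E-box CAGCTG, a palindrome that myogenic factors can bind, was searched for in the same window. It was present in 14 of the 25 muscle members with a promoter (56.0%, against 14.5% of autosomal genes), in 10 of 18 called members and 4 of 7 not called. Pygm, the muscle glycogen phosphorylase, which rose by 1.15 ± 0.17, has 2 matches, the nearest beginning 8 bases before the start site. Atp2a1, the calcium pump of fast muscle (1.17 ± 0.17), has 1 match beginning 55 bases before it. Tnnc2 and Ttn, described above, held no match. The promoters of Pygm and Atp2a1 are shown with the matches in capitals.
Pygm, chr19:6384158-6384407, plus strand: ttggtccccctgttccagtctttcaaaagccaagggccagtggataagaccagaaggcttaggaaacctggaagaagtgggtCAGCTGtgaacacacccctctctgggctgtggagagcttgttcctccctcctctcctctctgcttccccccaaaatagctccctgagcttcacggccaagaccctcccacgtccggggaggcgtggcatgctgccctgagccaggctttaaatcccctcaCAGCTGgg
Atp2a1, chr7:126463074-126463323, minus strand: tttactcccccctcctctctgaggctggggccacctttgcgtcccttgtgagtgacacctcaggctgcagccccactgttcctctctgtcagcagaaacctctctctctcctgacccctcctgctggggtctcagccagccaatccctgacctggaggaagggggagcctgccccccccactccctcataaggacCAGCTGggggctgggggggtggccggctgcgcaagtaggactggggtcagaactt

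Adipocyte genes rose in part. Of 18 measured members 10 were higher and 0 lower, against 6.17% of all genes higher. All 18 had a positive difference, and the median was 0.81. Plin1, which coats lipid droplets, read 3.87, 3.80 and 3.77 at P15 and 5.03, 4.61 and 4.86 at P90 (1.02 ± 0.25). Retn, the hormone resistin, went from 3.56, 3.57 and 3.49 to 4.20, 4.27 and 4.44 (0.76 ± 0.11, adjusted p = 5.0e-04). The insulin-responsive glucose transporter Slc2a4, which muscle shares, rose by 0.63 ± 0.11, the fatty acid transporter Cd36 by 1.00 ± 0.23 and the triglyceride-forming enzyme Dgat2 by 0.85 ± 0.20. Adipoq (1.29) and Ucp1 (1.49), which define white and brown fat cells, did not pass, and neither did Pparg (0.19) nor Lep (0.67). The count was 4 without P15 null array 2, 4 without P15 null array 3, 4 without P90 null array 1 and 5 without P90 null array 3. Plin1 lost the call without P15 null array 3 or P90 null array 1 and Dgat2 without P15 null array 2 or P90 null array 1 (adjusted p of 0.051 to 0.055). The call of Pck1 ended without any of these 4 arrays (adjusted p of 0.051 to 0.084) and with a sex score as a covariate (0.0505).

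Secretory epithelium and motile cilia genes rose most in 1 adult array. Of 14 mucosal secretory genes 6 were higher and 0 lower (median 0.73), and of 20 motile cilia genes 12 were higher and 0 lower (median 0.65). Of all genes 6.17% were higher. The cilia list median per array was 3.71, 3.63 and 3.63 at P15 and 4.52, 3.90 and 3.88 at P90, and the secretory list median was 3.35, 3.19 and 3.25 at P15 and 4.90, 3.75 and 4.20 at P90. P90 null array 1 was the highest on both lists, and the other adult arrays also lay above the young ones. Muc5b, a gel-forming mucin, read 2.90, 3.07 and 3.13 at P15 and 5.45, 3.60 and 4.21 at P90 (1.39 ± 0.30), and Pigr, which carries antibody across epithelia, rose by 1.41 ± 0.19. The axonemal dynein chains Dnah11 (0.94 ± 0.17) and Dnah5 (0.88 ± 0.17), the central pair protein Hydin (0.70 ± 0.12) and the radial spoke protein Rsph4a (1.05 ± 0.22) rose as well. Rsph4a went from 3.06, 2.76 and 3.33 to 4.67, 3.93 and 3.69. Foxj1, the master factor of motile cilia, differed by 0.45 and did not pass, nor did the airway secretory genes Scgb1a1 (0.31) and Bpifa1 (0.82). The cilia count was 5 without P15 null array 2, 7 without P15 null array 3, 5 without P90 null array 1 and 7 with a sex score as a covariate; the mucosal count was 3 without P15 null array 3 and 1 in the 6 null arrays alone. Keratinocyte genes moved beside them, with a list median of 3.44, 3.25 and 3.55 at P15 and 4.97, 3.47 and 3.88 at P90. Of 10 members 1 was called (Trp63, 0.52 ± 0.11), beside 13.0% of all genes. The part of dissected epithelium in the rises of these lists was not tested.

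Clock genes rose. Of 14 measured members 8 were higher and 0 lower (median 0.52), against 6.17% of all genes higher. Nr1d1, the repressor Rev-erb alpha, read 6.39, 5.87 and 5.91 at P15 and 7.002, 6.86 and 7.47 at P90 (1.05 ± 0.22, adjusted p = 0.0052). The repressors Bhlhe40 (0.71 ± 0.15) and Bhlhe41 (0.78 ± 0.16), the output factors Hlf (0.56 ± 0.10) and Tef (0.39 ± 0.11) and the period gene Per1 (0.51 ± 0.13) were higher. Clock (0.15) and Cry1 (0.17) did not pass. The hour of day at which tissue was taken was not known here and was not tested. The count was 4 without P15 null array 2, 5 without P90 null array 3 and 5 in the 6 null arrays alone. Per1 and Tef lost the call without P15 null array 2 or P90 null array 3, and Tef also without P15 null array 3 (adjusted p of 0.064 to 0.13). The E-box CACGTG, the palindrome bound by the CLOCK and BMAL1 pair, was present in 5 of the 12 members with a promoter (41.7%, against 8.14% of autosomal genes), in 3 of 7 called and 2 of 5 not called. Nr1d1, Hlf and another start site of Per1 held no match. The promoters of Per1 and Bhlhe41 shown here each hold 1 match, in capitals.
Per1, chr11:69098699-69098948, plus strand: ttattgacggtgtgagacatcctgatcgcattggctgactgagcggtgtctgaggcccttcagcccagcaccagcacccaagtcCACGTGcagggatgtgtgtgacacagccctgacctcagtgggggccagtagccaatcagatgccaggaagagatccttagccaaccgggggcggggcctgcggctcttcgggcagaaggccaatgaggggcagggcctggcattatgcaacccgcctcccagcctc
Bhlhe41, chr6:145865421-145865670, minus strand: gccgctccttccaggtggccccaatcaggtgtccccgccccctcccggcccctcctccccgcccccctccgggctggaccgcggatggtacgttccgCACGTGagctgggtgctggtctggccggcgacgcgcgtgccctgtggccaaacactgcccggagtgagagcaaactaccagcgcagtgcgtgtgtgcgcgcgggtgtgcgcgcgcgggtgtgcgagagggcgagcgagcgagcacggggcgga

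Macrophage genes were divided. Of 19 measured members 6 rose and 2 fell (median 0.16), beside 6.17% of all genes higher and 6.84% lower. Besides Mmp12, the rising genes were Gpnmb, a glycoprotein of lipid-laden macrophages, which went from 4.67, 4.24 and 4.24 to 5.75, 5.91 and 6.24 (1.58 ± 0.19), the chemokine Ccl3 (1.30 ± 0.24), the endotoxin co-receptor Cd14 (0.68 ± 0.19), the lysozyme Lyz2 (0.62 ± 0.18) and the scavenger receptor Msr1 (0.54 ± 0.16). Csf1r, the receptor on which macrophages depend, fell by 0.56 (SE 0.13), and the mannose receptor Mrc1 fell by 0.42 (SE 0.12). The pan-macrophage genes Adgre1 (-0.07), Cd68 (-0.28) and C1qa (0.09) did not pass. The rising count was 3 without P15 null array 2 and 3 without P15 null array 3, where Cd14, Lyz2 and Msr1 lost the call. These 3 lost it without P90 null array 1 too, Lyz2 and Msr1 without P90 null array 2 and Msr1 without P15 null array 1 (adjusted p of 0.073 to 0.14). Mrc1 lost it without P15 null array 1, 2 or 3 or P90 null array 1 or 3 (0.064 to 0.12). None of the 16 interferon response genes (median 0.29) and none of the 8 class I presentation genes (median 0.20) passed in the limma test. At an unadjusted p under 0.05 there were 7 and 1, all higher, beside 25.8% of all genes in either direction. Of 14 complement genes 2 rose, the factor Cfb (0.96) and the receptor C3ar1 (0.39), beside 13.0% of all genes called. C3ar1 lost the call without P15 null array 2 or 3 or P90 null array 1 or 2 (0.067 to 0.16).

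Hair cell genes were called at a share near that of all genes. Their list median was 3.93 to 3.96 in the P15 null arrays and 4.02 to 4.09 in the P90 null arrays. The median autosomal level in the null arrays was 4.74. Of 33 measured hair cell genes 2 rose and 1 fell (median 0.15), so 3 of 33 were called beside 13.0% of all genes. Xirp2, an actin-binding protein of hair bundles that striated muscle also makes, went from 5.54, 5.05 and 4.86 to 6.91, 6.99 and 6.63 (1.69 ± 0.19, adjusted p = 7.4e-05). Chrna10, a subunit of the acetylcholine receptor through which efferent nerves inhibit hair cells, read 2.94, 3.40 and 3.27 at P15 and 3.70, 4.00 and 3.82 at P90 (0.64 ± 0.17). Atoh1, the factor that specifies hair cells and also cerebellar granule cell precursors, read 3.83, 4.96 and 4.68 at P15 and 3.52, 3.64 and 3.38 at P90 (-0.98 ± 0.26). Its call ended without P15 null array 2 (adjusted p = 0.11), P15 null array 3 (0.087), P90 null array 1 (0.055) or P90 null array 3 (0.068), and that of Chrna10 without P15 null array 1 (0.084), P15 null array 3 (0.053) or P90 null array 2 (0.078). The transduction channel genes Tmc1 (0.15) and Tmc2 (-0.03), the tip link genes Cdh23 (0.10) and Pcdh15 (-0.30) and the myosins Myo7a (-0.01), Myo15 (0.18) and Myo6 (0.01) did not pass.

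Around the hair cells, 2 of 18 supporting cell and Notch genes rose and 2 fell (median 0.00). Each count of calls in this paragraph stands beside 13.0% of all genes called. The gap junction gene Gjb6 rose by 0.44 and S100a1 by 0.35, while the Notch target Hey1 fell by 0.40 and the retinoic acid-degrading enzyme Cyp26b1 by 0.51. The call of S100a1 ended without P15 null array 1, 2 or 3 or P90 null array 1 or 2 (adjusted p of 0.11 to 0.18). None of 13 genes of otoconia and acellular membranes (median 0.12) and none of 11 genes of dark cells and endolymph transport (median 0.09) passed in limma. In each list 2 had an unadjusted p under 0.05, beside 25.8% of all genes. Among those that did not pass were Oc90 (-0.53), Otop1 (0.21), Kcnq1 (0.04) and Kcne1 (-0.24). Kcnq1 and Kcne1 are subunits of the channel that passes potassium into the endolymph. Of 9 otic fibrocyte genes 2 rose, Coch (0.42 ± 0.09) and the transporter Slc4a11 (0.78 ± 0.21). The call of Slc4a11 ended without P15 null array 1, 2 or 3 or P90 null array 1 or 2 (adjusted p of 0.051 to 0.081), and with array medians subtracted the difference of Coch was 0.09. Of 20 vestibular ganglion genes 2 rose, the sodium channel Scn1a (0.78 ± 0.20) and the neurotrophin receptor Ntrk3 (0.39), and 0 fell (median 0.21). The call of Ntrk3 also ended without P15 null array 1 (0.054) or P15 null array 3 (0.087). Both ganglion calls ended without P15 null array 2 (adjusted p of 0.11 and 0.20) or P90 null array 3 (0.083 and 0.19). Of 13 Schwann cell myelin genes 3 fell (median -0.24), Pmp2 (-1.18 ± 0.32), Cnp (-0.47) and Ugt8a (-0.44), while the major myelin gene Mbp stood at -0.05. The call of Pmp2 ended without P15 null array 2 or 3 or P90 null array 1 or 3 (adjusted p of 0.056 to 0.093), and with that of Ugt8a the count was 1 without P15 null array 3.

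Genes of the IGF system itself moved both ways. Of 20 measured members 2 rose and 2 fell (median -0.10). This count and those of the other lists in this paragraph stand beside 13.0% of all genes called. Pappa2 (0.63 ± 0.16) and Pappa (-0.65 ± 0.13), related proteases that release IGF from its binding proteins, moved in opposite directions. The binding protein Igfbp6 rose by 0.38 ± 0.07, and Irs1, which relays the receptor signal, fell by 0.37 (SE 0.08). The receptors Igf1r (0.03) and Insr (0.18), the ligand Igf2 (-0.30) and the growth hormone receptor Ghr (0.19) did not pass. The call of Pappa2 ended without P15 null array 2 (adjusted p = 0.052), P15 null array 3 (0.080) or P90 null array 1 (0.051), and that of Irs1 with the mean of all its probe sets (-0.20, adjusted p = 0.12). Of 15 FoxO targets, genes that insulin and IGF signalling hold down in many cells, 5 rose (Trim63 0.78, Bcl6 0.67, Klf15 0.61, Bnip3 0.47 and Sod2 0.37) and 0 fell; Trim63 and Klf15 are also strongly expressed in muscle. The FoxO count was 3 without P15 null array 2, P15 null array 3 or P90 null array 1, where Bcl6 and Sod2 lost the call, and 3 with a sex score as a covariate. Of 11 feedback genes of MAPK signalling 3 fell (median -0.14), Dusp6 (-0.57), Etv4 (-0.38) and Spry4 (-0.29). The count was 1 without P15 null array 2, P15 null array 3, P90 null array 1 or P90 null array 3. Etv4 lost the call without each null array in turn (adjusted p of 0.060 to 0.18), and Spry4 without each except P90 null array 2 (0.096 to 0.17). The imprinted growth genes Mest (-0.59), Slc38a4 (-0.61) and Grb10 (-0.52) fell, 3 of 14 members, as did 2 of 6 oncofetal genes, Igf2bp3 (-1.50 ± 0.14) and Igf2bp1 (-0.48 ± 0.14), which bind Igf2 RNA in the fetus. Slc38a4 lost the call without P15 null array 2 or 3 or P90 null array 1 (adjusted p of 0.051 to 0.076), and Igf2bp1 without P15 null array 1 or 2 or P90 null array 1, 2 or 3 (0.064 to 0.14).

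The calls in the remaining lists stand beside 13.0% of all genes called. Of 24 sterol and fatty acid synthesis genes 4 fell and 3 rose (median 0.00). Sqle (-0.79 ± 0.08), an early enzyme of sterol synthesis, fell with Hmgcs1 (-0.36), Dhcr7 (-0.34) and the desaturase Fads2 (-0.31), while the fatty acid genes Scd1 (0.90 ± 0.17), Fasn (0.37) and Srebf1 (0.32) rose. Of these 7 calls those of Sqle and Scd1 alone held without each null array in turn. Of 20 endothelial genes 3 fell, Aplnr (-1.24 ± 0.12), a receptor of growing vessels, Erg (-0.34) and Tie1 (-0.31), and Vwf rose (0.47). Aplnr was the only call left without P15 null array 2 or 3 and the only lower one without P90 null array 3. Erg also lost the call without P15 null array 1 or P90 null array 2, Tie1 without P90 null array 1 and Vwf without P90 null array 1 or 2. Of 33 oxidative phosphorylation genes 3 rose, Ndufs7 (0.44), Ndufv1 (0.40) and Sdha (0.28), and the list median was 0.12. With array medians subtracted all 3 calls ended (0.21, 0.19 and 0.01 in that order, adjusted p of 0.17 to 0.94). Over the alternatives the list median ran from -0.07 to 0.34, so its direction depended on the processing. Of 20 ribosomal protein genes 3 fell, Rpl27 (-0.47), Rpl7 (-0.38) and Rps14 (-0.35), with none left without P15 null array 2 or P90 null array 2. Rpl7 and Rps14 also lost the call without P15 null array 3 or P90 null array 3. Of 10 thyroid hormone genes 2 rose, Ttr and the deiodinase Dio3 (0.61), and of 11 immediate early genes 2 rose, Atf3 (0.70) and Nr4a1 (0.57). Dio3, whose P15 mean lay below the background guide, lost the call without P15 null array 3 (0.055), and Nr4a1 lost it without P15 null array 2 or 3 or P90 null array 1, 2 or 3 (0.066 to 0.20). Of 12 melanocyte genes Oca2 rose (0.57) and Ednrb fell (-0.45), of 11 oligodendrocyte genes Aspa rose (0.48) and Olig2 fell (-0.52), and of 8 astrocyte genes S100b rose (0.37) and Gja1 (-0.48) and Agt (-0.43) fell. Aspa and Oca2 lost the call without P15 null array 1 or 3 or P90 null array 1, Aspa also without P15 null array 2, and Olig2 without P15 null array 1 or 2 or P90 null array 1 or 2 (0.052 to 0.096).

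Of 261 measured autosomal microRNA genes 0 rose and 11 fell in limma (4.21% called, beside 13.0% of all genes, median of all 0.04). At an unadjusted p under 0.05, 16 were higher and 25 lower, beside 25.8% of all genes in either direction. The 11 were chosen after their values were seen. A mature microRNA pairs with its targets through the seed, bases 2 to 8. A probe set reads the RNA of the hairpin region, does not tell the 5p from the 3p arm, and may cross-hybridise between copies of 1 microRNA. Of the 6 measured genes whose 5p product has the seed ACAUUCA, 4 fell, the pairs Mir181a-1 and Mir181b-1 on chromosome 1 and Mir181a-2 and Mir181b-2 on chromosome 2. The members outside these pairs, Mir181c (-0.23) and Mir181d (-0.02), did not pass. Mature sequences (RefSeq, GRCm38.p6) are given for these pairs and for the 2 called genes of the Mir17 to Mir92a-1 cluster on chromosome 14, with the seed in capitals, to show which products share a seed.
mmu-miR-181a-5p: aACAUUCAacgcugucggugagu
mmu-miR-181b-5p: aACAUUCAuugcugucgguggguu
mmu-miR-20a-5p: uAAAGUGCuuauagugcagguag
mmu-miR-19b-3p: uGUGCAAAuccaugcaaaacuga
The miR-181a and miR-181b products share the seed and differ after it, and the products of Mir20a and Mir19b-1 carry other seeds, which Mir17 and Mir19a share with them in that order.

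Mir181b-1 read 6.53, 6.81 and 6.68 at P15 and 5.84, 5.35 and 5.65 at P90 (-1.06 ± 0.17, adjusted p = 0.0011). Mir181a-1, which lies beside it (hairpins at chr1:137966639-137966718 and chr1:137966455-137966541), went from 4.97, 5.14 and 4.83 to 3.75, 3.27 and 3.15 (-1.59 ± 0.48, adjusted p = 0.040). The second pair fell less, Mir181a-2 by 0.54 and Mir181b-2 by 0.56. Mir20a went from 3.04, 3.71 and 3.11 to 2.62, 1.97 and 1.57 (-1.24 ± 0.36), with a P90 mean below the background guide, and Mir19b-1 from 4.00, 4.05 and 3.92 to 3.50, 3.23 and 3.35 (-0.63 ± 0.20). Their neighbour Mir19a (-1.20 ± 0.38) missed the threshold, and Mir17, which shares the seed of Mir20a, stood at -0.19. The other called genes were Mir142 (-0.95 ± 0.24), a microRNA of blood cells, the erythroid Mir451a (-0.72 ± 0.22), the neuronal Mir218-1 (-0.63 ± 0.14) and Mir128-2 (-0.62 ± 0.17), and Mir490 (-0.76 ± 0.21), which lay below the guide at P90. The number of lower genes was 1 without P15 null array 2, 4 without P15 null array 3, 4 without P90 null array 2, 6 without P15 null array 1 or P90 null array 1 and 6 with a sex score as a covariate. The call of Mir181b-1 alone held without each null array in turn. With array medians subtracted 7 microRNA genes were higher and 9 lower, and in the values as deposited 121 were higher and 1 lower.

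**Figure D3:**
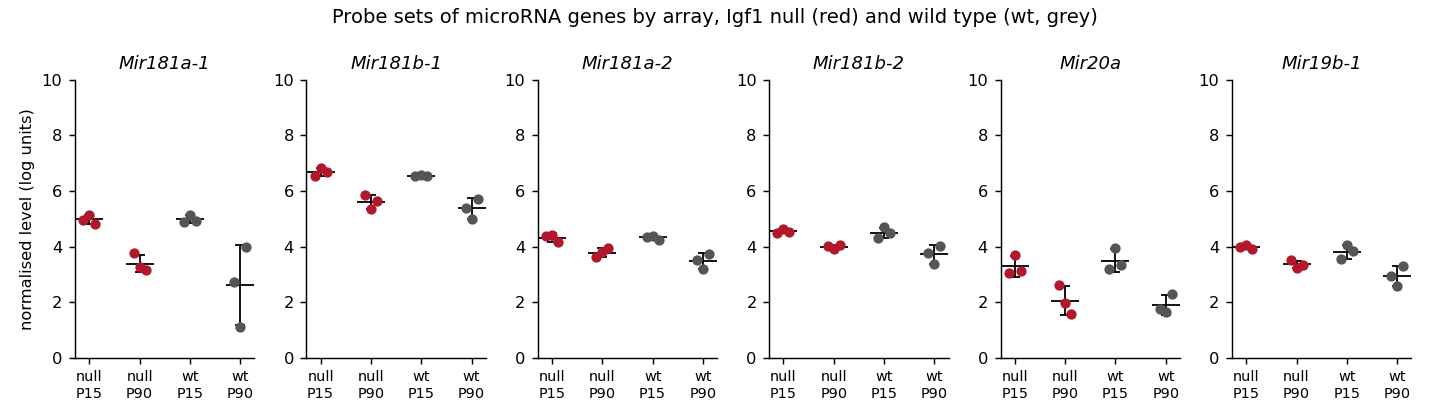
Normalised level in log units (y axis) of the probe sets of 6 microRNA genes in each array of null (red) and wild-type (grey, wt) vestibular organs at P15 and P90; points are arrays, bars the mean and whiskers ± SD (n = 3). In every panel the 3 null P90 arrays lie below the 3 null P15 arrays.

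The null change mostly had the direction of the wild-type change. Of the 1178 genes higher in null, 552 were also higher in wild type (46.9% of the null list and 35.4% of the wild-type list, in which 8.16% of genes were higher), and of the 1306 lower genes 948 were also lower (72.6% and 51.2%, with 9.70% lower in wild type). Of the 2484 called genes 2380 had the same sign in wild type, and 6 were called in opposite directions. The share of all genes with the same sign in both genotypes was not computed. Across autosomal genes the changes correlated at r = 0.68, a description without a test, since genes are not replicates. B cell precursors (median -1.50 in null and -1.30 in wild type), cell cycle (-0.80 and -0.74), collagen matrix (-0.74 and -0.64), osteoblasts (-0.95 and -0.73) and clock genes (0.52 and 0.44) had medians of like size in both genotypes, a description with no test of equality. Yet 5 of 12 B cell precursors had an unadjusted p under 0.05 for the difference of changes, against 6.38% of all genes. Of these, 4 lay below wild type and 1 above. Skeletal muscle had medians of 0.92 and 0.59, with 4 of 32 such differences above and 1 below. Immature neurons had -0.54 and -0.36, with 2 of 17 below. None of these differences passed the adjusted threshold. Cdk1 differed by -0.75 in wild type, Col2a1 by -1.57, Rag1 by -1.63, Prss35 by -2.01, Tnnc2 by 0.97 and Mir181b-1 by -1.17.

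Where the null change differed from the wild-type change, 3 genes passed the limma test of the difference itself (0.0157% of 19106), and 1219 had an unadjusted p under 0.05 (6.38%). Mmp12 read 4.11, 3.30 and 3.82 at P15 and 3.86, 3.80 and 4.05 at P90 in wild type, so the change of 2.29 in null stood against 0.16 (difference of changes 2.13 ± 0.27, adjusted p = 0.017). Clec4n, a C-type lectin of myeloid cells that senses fungi, went from 4.34, 4.30 and 4.43 to 5.41, 5.01 and 5.08 in null and from 4.12, 4.29 and 4.12 to 3.88, 3.28 and 3.61 in wild type (1.40 ± 0.21, adjusted p = 0.042). In null the adult arrays lay above the young ones, and in wild type below them. 1700006A11Rik, without a known role, went from 2.31, 2.18 and 2.45 to 1.70, 1.66 and 1.75 in null and from 1.30, 1.50 and 1.68 to 2.11, 1.97 and 1.87 in wild type (-1.11 ± 0.16, adjusted p = 0.038), near the background guide throughout. No gene passed in limma without wild-type P90 arrays 1 and 2 (326 larger and 206 smaller at an unadjusted p under 0.05), and none with a sex score as a covariate (342 and 299), where Mmp12 had 1.79 (adjusted p = 0.85). Mmp12 also missed the threshold without P15 null array 3 (adjusted p = 0.072), P90 null array 2 (0.067) or wild-type P90 array 2 (0.075). Clec4n missed it without any 1 of the 12 postnatal arrays other than wild-type P90 array 1 (0.055 to 0.15). 1700006A11Rik missed it without P15 null array 1 or 3, each null P90 array, wild-type P15 array 1 or 2 or wild-type P90 array 1 or 2 (0.070 to 0.12). With the replicate block Clec4n had 0.064 and 1700006A11Rik 0.062. The wild-type P90 arrays differed from the null P90 arrays in Xist, as given above, so sex and genotype moved together at P90 and their parts cannot be told apart there.

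Just short of the threshold were Gpnmb (difference of changes 1.77 ± 0.28, adjusted p = 0.057), the serine protease Tmprss11g (1.16 ± 0.19, adjusted p = 0.078) and Pde1c (-0.92 ± 0.15, adjusted p = 0.082), a calcium-dependent phosphodiesterase. Pde1c read 5.22, 5.48 and 5.50 at P15 and 5.62, 5.64 and 5.57 at P90 in null, and 4.67, 4.55 and 4.34 at P15 and 5.64, 5.77 and 5.54 at P90 in wild type. The wild-type arrays lay below the null arrays at P15 and overlapped them at P90. Ttr had the widest gap, with a rise of 2.48 in null and -1.12 in wild type, where it read 8.20, 7.76 and 8.39 at P15 and 8.33, 5.82 and 6.84 at P90 (3.60 ± 0.75, adjusted p = 0.37). Adipocyte genes had a median of 0.15 in wild type with 3 of 18 higher, and 6 of the 18 had an unadjusted p under 0.05 for a larger rise in null, against 3.41% of all genes above and 2.97% below. Motile cilia genes had a wild-type median of 0.21 with 2 of 20 higher, and 5 of 20 such differences. Of the 19 macrophage genes 5 had such a difference, Mmp12 alone past the adjusted threshold. The single differences within these lists other than Mmp12 did not pass over all genes.

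**Figure D4:**
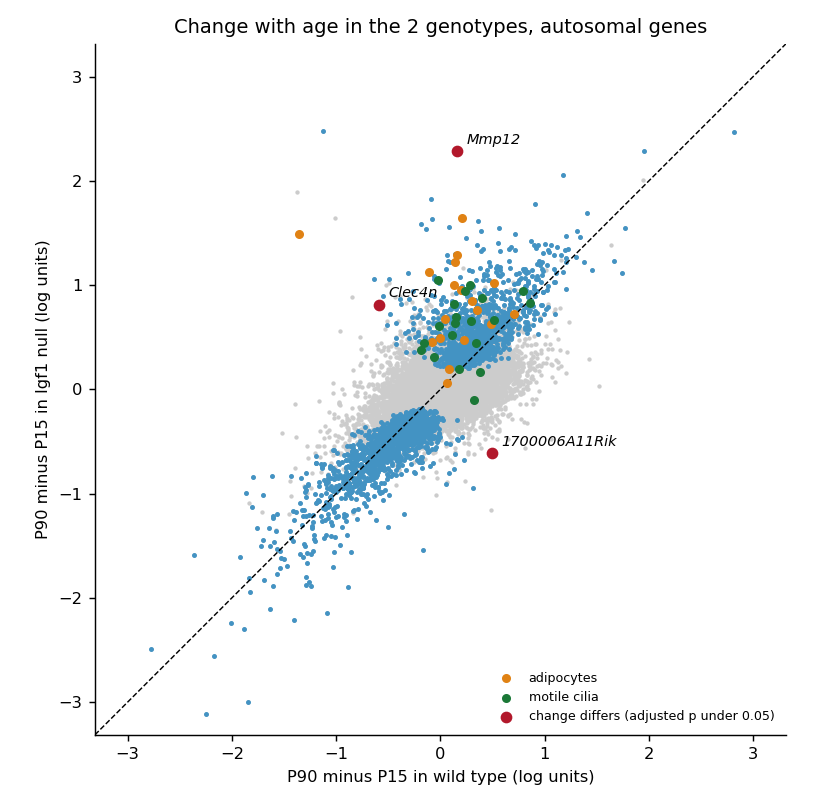
Change from P15 to P90 in wild type (x axis) against the change in Igf1 null (y axis), both in log units, for 19106 autosomal genes; blue points were called in null, grey were not, orange marks adipocyte genes, green motile cilia genes and red the 3 genes whose change differed between genotypes. Of the 2484 called genes 2380 have the same sign in both genotypes; the dashed line marks equal change, Mmp12 and Clec4n lie above it and 1700006A11Rik below it.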

How the data were processed

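RNA of vestibular organs was read on 18 Mouse Gene 1.1 ST arrays, 3 for each of 6 groups, grouped by genotype and age from the labels. The authors deposited 1 table of normalized expression values per probe set, treated as natural log values from their range (highest 10.03). No source used here names the base or the authors' steps. Array medians ran from 3.88 to 4.82, so the deposited values were quantile normalized here over all 18 arrays. Of 28853 probe sets 21789 have 1 gene symbol in the platform annotation, and the highest-mean probe set was kept for each of 19938 genes. limma 3.58.1 in R 4.3.3 was fitted to the 6 group means, with Benjamini-Hochberg adjusted p-values over all genes and a threshold of 0.05. The number of arrays limits the precision.

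Named genes were autosomal: the 10 largest called rises and falls whose P90 and P15 arrays do not overlap, the 5 genes in each direction with the lowest p for a change that differs from wild type, the 4 members of each list with the lowest p, and Igf1; further members were named for their role after values were seen. The members and lists were chosen with earlier results of these data known. The fit was tested on simulated data. Alternatives were other scalings, fewer arrays, a filter on low genes, the mean of probe sets, a replicate block, a sex score, array weights and leaving out each array.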

Additional observations from a re-analysis of the deposited data

Results flagged for a closer look

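For 3 genes the change from P15 to P90 differed between null and wild type in the limma test of the difference. Mmp12, the macrophage elastase, changed by 2.13 more in null, with an adjusted p of 0.0016 to 0.85 over the alternatives. Clec4n, a lectin of myeloid cells, changed by 1.40 more in null, with an adjusted p of 0.020 to 0.93. 1700006A11Rik had a difference of changes of -1.11, with an adjusted p of 0.0051 to 0.93, at levels near background. All 3 missed the threshold without wild-type P90 arrays 1 and 2, where the differences were 1.98, 1.38 and -0.99, and with a sex score as a covariate, where they were 1.79, 1.33 and -0.97. Xist stood at 7.42 to 7.91 in the null P90 arrays and at 1.86 to 3.33 in the wild-type P90 arrays.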

How the results depend on the processing

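Against 1178 genes higher and 1306 lower, the values as deposited gave 7264 and 192, the 6 null arrays alone 690 and 706, and array weights 2770 and 2741; leaving out each null array gave 555 to 1027 higher and 695 to 1210 lower. Subtracting array medians gave 929 and 1876, and the sex score as a covariate 808 and 952. Of the 2 larger and 1 smaller changes in null than in wild type, limma found 0 and 0 with array medians subtracted (507 and 653 at an unadjusted p under 0.05), 1 and 0 in the values as deposited, 0 and 0 with the 12 postnatal arrays (646 and 635), 0 and 0 with the sex score (342 and 299), 9 and 5 with array weights, and 0 smaller without the lowest 25% of genes (440). Leaving out each array gave 0 to 4 larger and 0 to 5 smaller, and leaving out wild-type P90 arrays 1 and 2 together, chosen after seeing the data, 0 and 0 (326 and 206). In the values as deposited, where the median gene shifted by 0.39, Olig2 (0.028), Tie1 (0.079), Igf2bp1 (0.13), Spry4 (0.11) and Etv4 (0.12) turned positive. Of the 135 named genes that were called, 37 lost the call in the 6 null arrays alone, 33 without P15 null array 2 and 33 without P15 null array 3. With the sex score 17 lost it, and in the values as deposited 32 lost it without a change of sign. With array medians subtracted 20 lost it, among them Gjb6 (0.26), S100b (0.11), Igfbp6 (0.22), Bnip3 (0.28) and Sod2 (0.12). The cause was not tested. With the replicate block there were 1042 higher, 1147 lower, and 1 larger and 0 smaller change. Deviations of same-numbered null arrays correlated at -0.04, 0.11 and 0.04, and of differently numbered ones at -0.16 to 0.11. With 3 arrays per age this cannot tell whether same-numbered arrays belong together.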
